A study of Mus musculus with 16 samples.

Results

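The 10 genes described here encode alpha-tubulin (Tuba8, Tuba1a, Tuba1b, Tuba1c and Tuba4a) and beta-tubulin (Tubb2a, Tubb2b, Tubb4b, Tubb5 and Tubb6), out of 24082 Ensembl genes in the deposited liver table. They were chosen by gene symbol, and the set was built around Tuba8, which had been selected on its change in these same livers, so Tuba8 is described with no test. The other 9 members were selected as family members with earlier results of these data known, and their counts are read against the share of all genes that passed the same test.

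The livers came from female C57Bl6/J mice in 4 groups of 4. Pair control mice received a liquid diet without ethanol and vehicle, Pair IMC mice the same diet with iodomethylcholine (IMC), EtOH control mice a chronic ethanol liquid diet and vehicle, and EtOH IMC mice both ethanol and IMC. IMC inhibits the gut microbial enzyme that splits choline to trimethylamine, and the comparison asks how blocking that enzyme alters the host liver. In the study the mice given IMC with ethanol ate less and weighed less than those given ethanol alone, so the drug and the lower intake cannot be told apart in that group. The study's body weight figure also marks a difference between pair-fed mice with and without IMC. The drug and body weight therefore cannot be told apart in pair-fed mice either. Each library was 1 mouse, named below by the library number in its label.

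Microtubules are polymers of alpha/beta-tubulin dimers, and in hepatocytes they carry secretory vesicles, lipoproteins and canalicular transporters. Most cells express several tubulin genes whose products mix in the same polymer and differ mainly at the end of the chain. Tuba8 is a divergent alpha-tubulin best known from heart, skeletal muscle and testis. Tubulin mRNA is also autoregulated: when free dimers are in excess, TTC5 recognises the start of the nascent chain and, with SCAPER, brings the CCR4-NOT deadenylase to the translated mRNA.

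The first bases of the coding sequence are shown because that autoregulation acts on the residues they encode. The sequences below run 5′ to 3′ from the start codon, with the first 12 bases in capitals, and come from GENCODE release M21 on GRCm38.
Tuba8: ATGAGGGAATGCatatcggtccat
Tuba1a: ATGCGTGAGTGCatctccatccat
Tuba1b: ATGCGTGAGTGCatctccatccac
Tuba1c: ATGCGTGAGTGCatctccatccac
Tuba4a: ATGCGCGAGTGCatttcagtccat
Tubb2a: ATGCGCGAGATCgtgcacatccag
Tubb2b: ATGCGAGAGATCgtgcacattcag
Tubb4b: ATGAGGGAGATCgtgcacctgcag
Tubb5: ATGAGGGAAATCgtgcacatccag
All 5 alpha genes had TGC as the fourth codon, and the 4 beta genes printed had ATC. Tuba8 shared its second codon, AGG, with Tubb4b and Tubb5 rather than with the other alpha genes.

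Tuba8 lies at chr6:121210696-121226854 on the plus strand of GRCm38 and has 5 exons and 1347 coding bases. Its coding sequence was 79.12% identical to that of Tuba1a and 80.97% to that of Tuba4a, whereas Tuba1a and Tuba1b were 98.3% identical. Of the 100-base windows of the Tuba8 transcript, 12.5% also occurred in another annotated transcript, all in the antisense gene Gm15856, which overlaps Tuba8. Tuba4a lies at chr1:75214228-75219865, Tubb2a at chr13:34074274-34078007, Tubb2b at chr13:34126748-34130466, Tubb4b at chr2:25222160-25224702 and Tubb5 at chr17:35833921-35838306, all on the minus strand and with 4 exons. Tuba1a (chr15:98949837-98953703) and Tuba1b (chr15:98931425-98934565) are on the minus strand and Tuba1c (chr15:99029891-99038110) on the plus strand. The share of windows found elsewhere was 73% for Tuba1b, 65.8% for Tuba1a and 53.4% for Tuba1c, and these 3 genes shared windows with each other and with pseudogenes, so their counts are uncertain individually. Tubb2a shared 35.9% of its windows with Tubb2b, Tubb4b 27.4% with the pseudogene Tubb4b-ps1, and Tuba4a 46.7% with Stk16, which overlaps it on the opposite strand. Tubb5 and Tubb6 shared none. How the counting treated strand and shared reads is not given in the sources used here.

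Tuba8 was higher in the livers of mice given IMC on both diets, and its IMC difference was the widest of the family. Values are read counts divided by a size factor and put on 1 scale for all 16 libraries (rescaled counts). In Pair control livers Tuba8 stood at 11.1 in mouse 10, 11.7 in mouse 12, 19.9 in mouse 14 and 27.5 in mouse 16. The Pair IMC livers held 107 in mouse 2, 154 in mouse 4, 111 in mouse 6 and 52.9 in mouse 8. Every Pair IMC mouse was above every Pair control mouse, and mouse 8 was the lowest of its group.

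The ethanol-fed mice had the same order. Tuba8 was 19.7 in mouse 1, 46 in mouse 3, 51.7 in mouse 5 and 46.4 in mouse 7 among EtOH control livers. In EtOH IMC livers it was 133 in mouse 9, 89 in mouse 11, 141 in mouse 13 and 153 in mouse 15. The EtOH IMC mice did not overlap the EtOH control mice, but they did overlap the Pair IMC mice, and EtOH control mice overlapped Pair control mice through mouse 1.

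**Figure D1:**
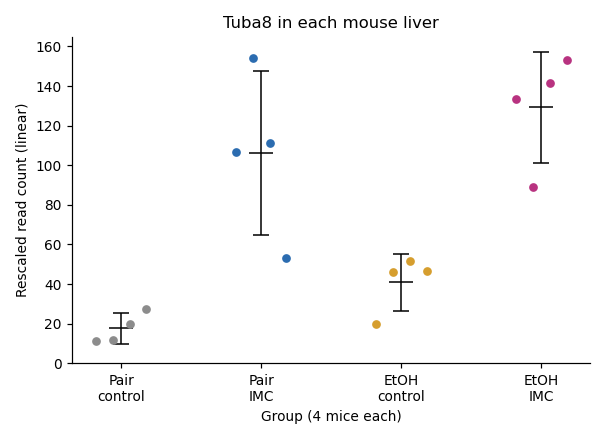
Tuba8 rescaled read counts (linear axis, arbitrary count units) in each of the 4 groups; each point is 1 mouse, and the bars give mean ± SD (n = 4). Pair control mice sit between 11.1 and 27.5 and EtOH control mice between 19.7 and 51.7, below all mice given IMC, which start at 52.9.

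Group means of Tuba8 were 17.6 ± 7.73 for Pair control and 106 ± 41.4 for Pair IMC livers, and 41 ± 14.4 for EtOH control and 129 ± 28 for EtOH IMC livers (SD, n = 4 each). On the log2(rescaled count + 1) scale, the IMC difference was 2.52 (SE 0.35) in pair-fed and 1.69 (SE 0.35) in ethanol-fed mice, and the ethanol difference was 1.18 (SE 0.35) without IMC and 0.35 (SE 0.35) with it. The last of these rested on single libraries, at 0.05 without Pair IMC mouse 8 and 0.56 without Pair IMC mouse 4. These values are a description, because Tuba8 was picked for them. The reads behind them were few, from 10 to 27 per library in Pair control and from 42 to 162 in the groups given IMC, so the control level in particular carries a wide counting error.

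Tuba4a, the other alpha-tubulin gene outside the Tuba1 cluster, was the most abundant alpha gene per length and was highest in mice given both ethanol and IMC. Its rescaled counts were 1281, 1037, 1583 and 1732 in Pair control mice 10, 12, 14 and 16, and 1903, 1780, 1735 and 1316 in Pair IMC mice 2, 4, 6 and 8. In EtOH control mice 1, 3, 5 and 7 they were 2095, 2251, 2142 and 2201, and in EtOH IMC mice 9, 11, 13 and 15 they were 2993, 2813, 3921 and 4756. The pair-fed groups overlapped, while all EtOH IMC mice lay above all EtOH control mice, which in turn lay above all Pair control mice.

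Tuba4a rose with IMC in ethanol-fed mice, by 0.70 on the log2 scale (SE 0.17, adjusted p = 0.00626 by limma), and its difference in pair-fed mice was 0.27 (SE 0.17, adjusted p = 0.327). It rose with ethanol in control mice by 0.65 (adjusted p = 0.0179, and 0.0524 without Pair control mouse 12) and in IMC mice by 1.09 (adjusted p = 0.000444). The opposite-strand gene Stk16, a kinase gene whose reads could enter Tuba4a, had means from 594 to 727 over the groups, and its ethanol difference averaged over treatments was -0.07 (adjusted p = 0.456). Its IMC difference averaged over diets was 0.21 (adjusted p = 0.022), in the direction of Tuba4a, and the part of shared reads in Tuba4a was not tested.

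Tuba1a, Tuba1b and Tuba1c are neighbouring alpha genes on chromosome 15, and none of their IMC differences passed. Tuba1c ranged over 563 to 903 in Pair control, 459 to 740 in Pair IMC, 890 to 1249 in EtOH control and 789 to 1174 in EtOH IMC livers. Its IMC differences were -0.14 in pair-fed and -0.13 in ethanol-fed mice (adjusted p = 0.676 and 0.637 by limma). It rose with ethanol by 0.64 in control mice and again by 0.64 in IMC mice (adjusted p = 0.0282 and 0.0206). The first call was lost without Pair control mouse 10 or 12 or EtOH control mouse 3, 5 or 7 (adjusted p from 0.0628 to 0.0798), and the second without Pair IMC mouse 8 or EtOH IMC mouse 13 or 15 (adjusted p from 0.0644 to 0.0725).

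Tuba1b ranged from 271 to 546 in Pair control, 272 to 448 in Pair IMC, 371 to 453 in EtOH control and 460 to 689 in EtOH IMC livers. The EtOH IMC mice did not overlap the EtOH control mice, and the IMC difference there was 0.51 (SE 0.19, adjusted p = 0.0608 by limma), which did not pass, though it did by DESeq2 (adjusted p = 0.0396), in a fit of these groups alone (adjusted p = 0.0118) and without Pair control mouse 10 or 16, Pair IMC mouse 2 or EtOH IMC mouse 9 (adjusted p from 0.0181 to 0.0499). It rose with ethanol under IMC by 0.75 (adjusted p = 0.0124). Tuba1a was far lower, at 47.7 to 103 over all 16 mice, with overlapping groups and no comparison past the threshold. Its IMC differences were -0.23 and -0.24 and its ethanol differences 0.27 in control and 0.26 in IMC mice.

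Tubb2a, a beta-tubulin gene, had the largest IMC difference after Tuba8 in pair-fed mice and on average, while in ethanol-fed mice Tubb4b and Tubb5 were slightly above it. Per length of all its annotated exons, Tubb2a had the highest mean level of the members in each group. The counts were 1029, 722, 611 and 671 in Pair control mice 10, 12, 14 and 16, and 1908, 1799, 1404 and 1747 in Pair IMC mice 2, 4, 6 and 8. EtOH control mice 1, 3, 5 and 7 held 1772, 1228, 1970 and 1034, and EtOH IMC mice 9, 11, 13 and 15 held 2610, 1669, 2820 and 3496. In pair-fed mice the groups were fully apart, and in ethanol-fed mice they overlapped because mouse 11 was below mice 1 and 5.

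Tubb2a rose with IMC by 1.20 in pair-fed mice (SE 0.22, adjusted p = 0.00337 by limma) and by 0.82 in ethanol-fed mice (SE 0.22, adjusted p = 0.0141). The second call was lost without EtOH IMC mouse 15 (0.67, adjusted p = 0.0503) and without EtOH control mouse 7 (0.66, adjusted p = 0.054). With ethanol Tubb2a rose by 0.96 in control mice (adjusted p = 0.01), and its difference in IMC mice was 0.59 (adjusted p = 0.0769, but 0.0309 by DESeq2 and 0.0143 without EtOH IMC mouse 11). Tubb2b, its close neighbour in sequence, was at 0 to 8.81 rescaled counts, with at most 9 reads in a library, and was too low to test.

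Tubb4b, a broadly expressed beta-tubulin, was 846, 845, 913 and 1054 in Pair control mice 10, 12, 14 and 16. It was 1439, 1296, 1376 and 974 in Pair IMC mice 2, 4, 6 and 8, where mouse 8 fell inside the control range. It was 1067 to 1288 in EtOH control and 1762 to 2806 in EtOH IMC livers, with no overlap between these groups. The IMC rise was 0.88 in ethanol-fed mice (SE 0.14, adjusted p = 0.000336 by limma). In pair-fed mice it was 0.47 (SE 0.14, adjusted p = 0.0406), and leaving out any of 7 mice (Pair control 10, 12 or 14, Pair IMC 2, 4 or 6, or EtOH control 3) ended that call (adjusted p from 0.0517 to 0.114). Its ethanol differences were 0.42 in control mice (adjusted p = 0.0562, but 0.0366 by DESeq2, 0.0207 in a fit of these groups alone, and 0.0325 to 0.0413 without Pair control mouse 16, Pair IMC mouse 8 or EtOH IMC mouse 11 or 15) and 0.83 in IMC mice (adjusted p = 0.000788).

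Tubb5, a widely expressed beta-tubulin, was highest in mice given both ethanol and IMC. Its counts were 635 to 762 in Pair control, 668 to 998 in Pair IMC, 610 to 778 in EtOH control and 1021 to 1480 in EtOH IMC livers. All 4 mice given both ethanol and IMC were above all other mice, the nearest being Pair IMC mouse 2 at 998. Tubb5 rose with IMC in ethanol-fed mice by 0.83 (SE 0.13, adjusted p = 0.000337 by limma) and with ethanol in IMC mice by 0.67 (adjusted p = 0.00246), while its IMC difference in pair-fed mice was 0.11 (adjusted p = 0.646) and its ethanol difference in control mice -0.05 (adjusted p = 0.821).

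Tubb6, a minor beta-tubulin in liver, was 113 to 130 in Pair control, 73.1 to 156 in Pair IMC, 128 to 182 in EtOH control and 158 to 241 in EtOH IMC livers. Only its ethanol difference in IMC mice, 0.68 (adjusted p = 0.0222 by limma), passed among the within-diet and within-treatment comparisons. It did not pass in a limma fit of these groups alone (adjusted p = 0.0623). Nor did it pass without Pair IMC mouse 8 (0.44, adjusted p = 0.0574) or EtOH IMC mouse 13 or 15 (adjusted p = 0.0609 and 0.0789).

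**Figure D2:**
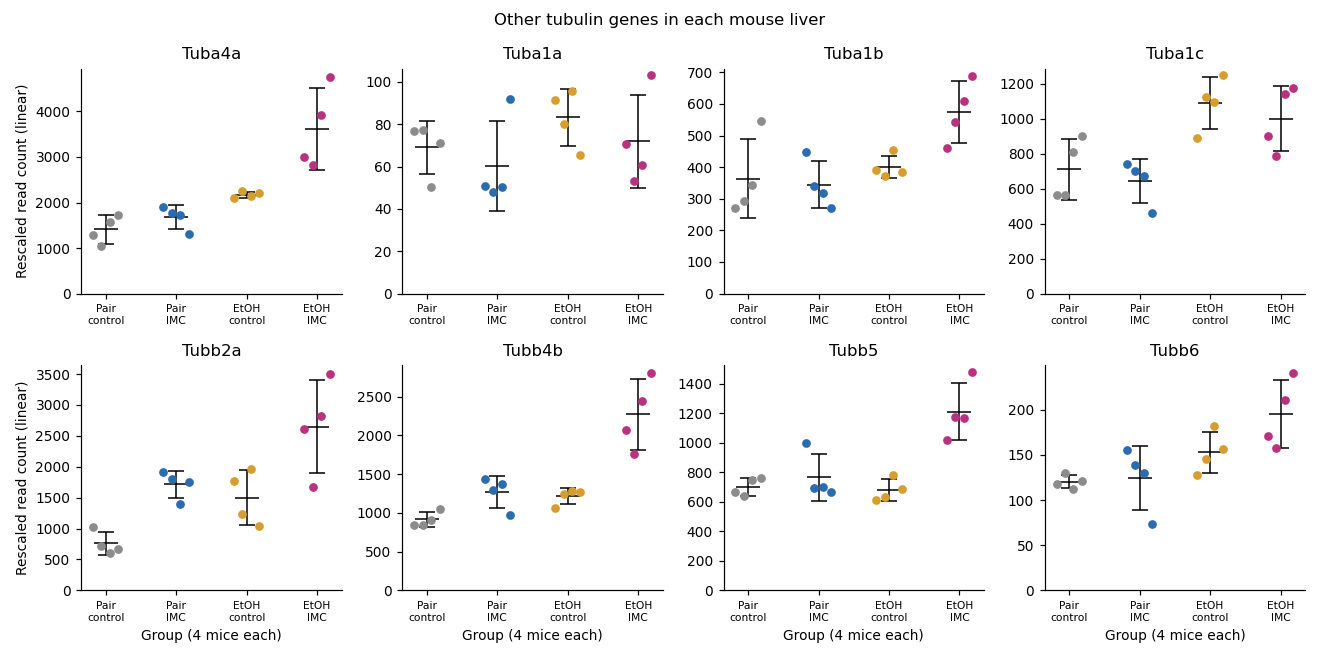
Rescaled read counts (linear axes, 1 scale per gene) of the 8 other tubulin genes tested; each point is 1 mouse, and the bars give mean ± SD (n = 4 per group). Tubb5 and Tubb4b are highest in the 4 EtOH IMC mice with no overlap, while Tuba1a overlaps in all groups.

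Counted over the members other than Tuba8, 8 of 9 passed the filter on low values. With IMC, 2 of the 8 were higher in pair-fed mice (Tubb2a and Tubb4b), where 4.32% of all 12537 genes tested were called higher. In ethanol-fed mice 4 of 8 were higher (Tuba4a, Tubb2a, Tubb4b and Tubb5), against 10.4% of all genes. Averaged over the diets, the same 4 genes were higher, against 14.1% of all genes, with a median difference of 0.35 over the 8 members and -0.01 over all genes.

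The averaged IMC rises were 1.01 for Tubb2a (SE 0.16, adjusted p = 0.000185 by limma), 0.67 for Tubb4b (SE 0.10, adjusted p = 0.000105), 0.49 for Tuba4a (SE 0.12, adjusted p = 0.0051) and 0.47 for Tubb5 (SE 0.09, adjusted p = 0.00116). The other 4 members stood at -0.23 (Tuba1a) to 0.23 (Tuba1b), and none of these passed.

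With ethanol, 3 of 8 members were higher in control mice (Tuba4a, Tuba1c and Tubb2a), where 6.33% of all genes were called higher. In IMC mice 6 of 8 were higher (all but Tuba1a and Tubb2a), where 7.86% of all genes were. Averaged over the treatments, 7 of 8 were higher, all but Tuba1a, against 12.9% of all genes, and the largest were Tuba4a at 0.87 (SE 0.12, adjusted p = 7.62e-05 by limma) and Tubb2a at 0.78 (SE 0.16, adjusted p = 0.00167).

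**Figure D3:**
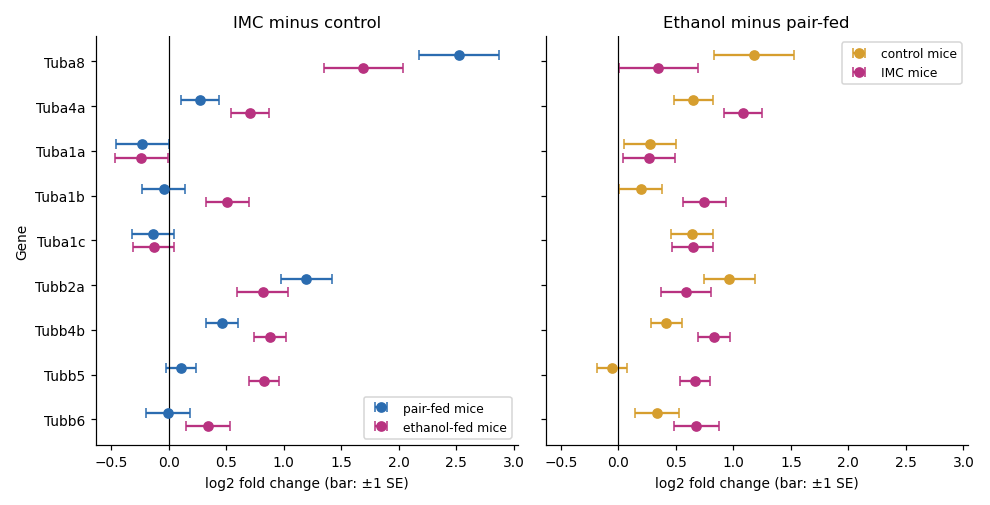
Differences in log2(rescaled count + 1) for the 9 measurable tubulin genes, IMC minus control on the left and ethanol minus pair-fed on the right; points are fitted values and bars ±1 SE from the fit over 16 libraries. The IMC difference of Tuba8 is 2.52 in pair-fed and 1.69 in ethanol-fed mice, while Tubb5 moves from 0.11 to 0.83.

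Tested directly, the difference between the diets in the IMC effect passed for 0 of 8 members by limma, against 1.11% of all genes in either direction. At an unadjusted p under 0.05 there were 2 members (Tubb4b and Tubb5), beside 1913 of all 12537 genes. Of the members edgeR called 0 and DESeq2 called 1, where DESeq2 called 340 of 12527 genes. The nearest was Tubb5, whose IMC effect was 0.72 higher under ethanol (SE 0.18, adjusted p = 0.0691, and 0.0215 to 0.138 over the alternatives). It passed without Pair IMC mouse 2 (0.0219) or EtOH IMC mouse 9 (0.0494). The IMC effect of Tuba8 was 0.83 lower under ethanol (SE 0.49), the opposite sign to Tubb5, and was not tested. This contrast, the within-diet IMC effects and the within-treatment ethanol effects set libraries numbered 1 to 8 against libraries numbered 9 to 16. What that numbering stands for is not given, and it cannot be told apart from those contrasts, whereas each averaged effect has libraries of both number ranges on each side. All ethanol-fed mice had odd library numbers and all pair-fed mice even ones. Odd and even numbering therefore cannot be told apart from the ethanol effects, the averaged one included.

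Library 15, an EtOH IMC mouse, was the highest of its group for all 9 measurable members, Tuba8 included. Library 11 was the lowest of that group for 7 of 9, and library 8 the lowest of the Pair IMC group for 7 of 9. Without library 15, the counts of members called were 3 for IMC under ethanol and 4 for ethanol under IMC in place of 4 and 6, and without library 8 they were 4 and 4. The averaged counts were 4 for IMC and 7 for ethanol without library 15, as with it. Without library 8 they were 5 and 7, Tubb6 being called with IMC (0.29, adjusted p = 0.0403), and without Pair control mouse 16 Tuba1b was (0.34, adjusted p = 0.0243). The shares over all genes moved too. Genes called higher with IMC in pair-fed mice were 217 without Pair IMC mouse 6 and 228 without Pair IMC mouse 4, against 541 with them. For ethanol in control mice they were 472 without EtOH control mouse 5, against 794, and for ethanol in IMC mice 635 without library 15, against 985. Why these libraries differ was not tested. The count for ethanol in control mice was 1 rather than 3 without Pair control mouse 12, where only Tubb2a was called.

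Levels can be compared between genes only per length, as RPKM, reads per kilobase of exon scaled to the library total. The length was that of all annotated exons of a gene merged, which can exceed that of 1 transcript. The order of genes with similar levels therefore depends on the length chosen. In Pair control livers the order was Tubb2a at 42.3 ± 11.7, Tubb4b at 39.1 ± 3.08, Tuba4a at 33.9 ± 6.69, Tuba1c at 27.6 ± 5.98, Tubb5 at 18.8 ± 1.21 and Tuba1b at 17.2 ± 5.38 (SD, n = 4). Tubb2a and Tubb4b, and Tubb5 and Tuba1b, lay within each other's spread. Tubb6 at 4.42 ± 0.312, Tuba1a at 3.43 ± 0.68, Tuba8 at 0.688 ± 0.282 and Tubb2b at 0.138 ± 0.147 followed.

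Tuba8 was a minor alpha transcript even where it was highest. With IMC its level per length was 3.99 ± 1.66 in pair-fed and 5.35 ± 1.13 in ethanol-fed mice, beside 2.8 ± 0.918 and 3.73 ± 1.08 for Tuba1a. It made up 0.806% ± 0.17 of the summed alpha level for Pair control and 4.6% ± 1.42 for Pair IMC livers, and 1.33% ± 0.422 for EtOH control and 3.15% ± 0.481 for EtOH IMC livers (SD, n = 4). The share was at least 2.69% in every mouse given IMC and at most 1.66% in every mouse without it. The summed alpha level was 82.8 ± 17 in Pair control and 84.6 ± 15.2 in Pair IMC, and the summed beta level 105 ± 10.6 and 165 ± 21. In EtOH control livers the alpha and beta sums were 122 ± 8.05 and 163 ± 30.9, and in EtOH IMC livers they reached 170 ± 31.8 and 297 ± 63.6.

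**Figure D4:**
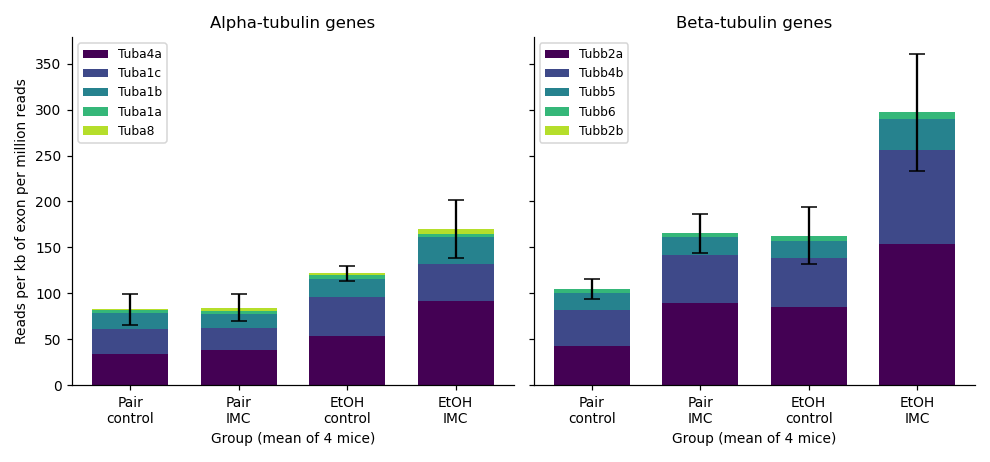
Summed RPKM (reads per kilobase of exon scaled to the library total, linear axis) for alpha-tubulin genes on the left and beta-tubulin genes on the right, stacked by gene as group means of 4 mice, with bars for the SD of the sum. Tuba8 is a thin slice of 0.806% to 4.6% of the alpha total. In each group Tuba4a is the largest alpha slice and Tubb2a the largest beta slice.

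Of 10 other tubulin genes, 3 passed the filter (Tubg1, Tubd1 and Tube1). With IMC averaged over diets, limma called 0 of these 3, with 0 at an unadjusted p under 0.05 and 0 by edgeR or DESeq2. Over all genes 14.1% were called higher and 14% lower by limma, and 4997 of 12537 had an unadjusted p under 0.05. With ethanol averaged over treatments 1 of the 3 was called, where 12.9% of all genes were higher. It was Tubg1, the gamma-tubulin that nucleates microtubules, which rose by 0.37 (adjusted p = 0.00715 by limma). Tubg1 was called in IMC mice (0.54, adjusted p = 0.0101 by limma), while 0 of the 3 were called in control mice. The brain, testis and platelet genes Tubb3, Tubb4a, Tubb1, Tuba3a and Tuba3b, and also Tubal3, stood at or near 0 in every group.

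Of 20 chaperonin, prefoldin and cofactor genes that fold tubulin, 4 rose and 1 fell with IMC averaged over diets, beside 14.1% of all genes higher and 14% lower. Tcp1 and Cct2, subunits of the CCT chaperonin that closes around new tubulin, rose by 0.26 and 0.21, and Pfdn1, a prefoldin subunit, fell by 0.22. With ethanol 4 rose and 1 fell, beside 12.9% and 13.1% of all genes, and the largest were Cct3 at 0.46, Cct7 at 0.30 and Tbcd, a folding cofactor, at 0.28.

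Of 15 tubulin-modifying enzymes tested, 3 rose and 1 fell with IMC averaged over diets, beside 14.1% of all genes higher and 14% lower. Agtpbp1, which trims glutamates from the tubulin tail, rose by 0.51 (adjusted p = 8.77e-05 by limma), and Ttll7 and Ttll4, which add them, by 0.41 and 0.30. With ethanol 2 rose, beside 12.9% of all genes, namely Ttll1, a polyglutamylase, by 1.07 and Ttll12 by 0.51.

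Of 28 microtubule-associated genes, 6 rose and 5 fell with IMC averaged over diets, beside 14.1% and 14% of all genes, led by Map9 at -0.73, Fign, a severing enzyme, at -0.46, and Camsap2, which caps minus ends, at 0.43. With ethanol 3 rose and 1 fell, beside 12.9% and 13.1% of all genes, the largest being Clip2, a plus-end tracker, at 0.94. Of 27 interphase motor genes, 6 rose and 1 fell with IMC, beside the same 14.1% and 14%, led by Dync1h1, the dynein heavy chain, at 0.38, Kif13a at -0.32 and Kif1b at 0.30. With ethanol 6 rose and 3 fell, beside 12.9% and 13.1%, led by Kifc3 at 0.53 and Kif1b at -0.44.

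In the autoregulation pathway, 1 of 12 genes rose and 3 fell with IMC averaged over diets, beside 14.1% of all genes higher and 14% lower. The 3 that fell were Scaper by 0.56 (adjusted p = 0.0216 by limma), the deadenylase gene Cnot8 by 0.33 (adjusted p = 0.00218) and Ttc5, which recognises nascent tubulin, by 0.29 (adjusted p = 0.0165), and Cnot11 rose by 0.21. With ethanol, Cnot7, Cnot6l and Cnot2 fell by 0.41, 0.36 and 0.20, where 13.1% of all genes were lower. The list's median was -0.04 with IMC and -0.10 with ethanol, beside -0.01 and 0.00 over all genes. Whether these changes bear on the tubulin levels was not tested.

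The 5 genes whose log2 values followed Tuba8 most closely over the 16 libraries were Myo1c, a class I myosin, at r = 0.943, Abce1, a ribosome recycling factor, at 0.92, Aox1, an aldehyde oxidase, at 0.917, Mpp6, a scaffold protein, at 0.916 and Iars, the isoleucyl-tRNA synthetase, at 0.913. Their Spearman values were 0.906 to 0.929, and the points share the 4 groups and the library scale. Aox1 averaged 591 for Pair control and 1566 for Pair IMC livers, and 963 for EtOH control and 1732 for EtOH IMC livers. Among the tubulin genes, Tubb4b was closest to Tuba8 (r = 0.836, place 84 among 12536 genes), followed by Tubb2a at 0.77 and Tuba4a at 0.69, and Tuba1a was at -0.288.

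The genes beside Tuba8 on chromosome 6 were also compared with IMC. Pex26, a peroxisome import gene that ends 11859 bases away, differed by 0.02 in pair-fed and -0.25 in ethanol-fed mice. Usp18, an interferon-induced protease gene 19052 bases away on the other side, differed by -0.41 and 0.04, and neither gene passed. Of the others within 200 kb, Mical3 differed by 0.16 in pair-fed mice (adjusted p = 0.366 by limma) and fell by 0.36 in ethanol-fed mice (adjusted p = 0.0255). Slc6a12 differed by -0.21 in pair-fed mice (adjusted p = 0.349) and fell by 0.46 in ethanol-fed mice (adjusted p = 0.0185). Slc6a13 differed by 0.31 and -0.05, and neither passed. Averaged over diets, Mical3, Slc6a13 and Slc6a12 stood at -0.10, 0.13 and -0.33, of which only Slc6a12 passed (adjusted p = 0.0121), and Iqsec3 had at most 6 reads.

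The bases before the first annotated start are shown for Tuba8, Tubb2a and Tubb4b, the members with the 3 largest averaged IMC differences, with matches to 4 promoter motifs in capitals on either strand. The motifs were the CCAAT box, the TATA box as TATAAA, the GC box as GGGCGG, and the antioxidant response core TGACNNNGC, and the sequences are from RefSeq on GRCm38.p6, where 8 of 10 members had an entry.
Tuba8, chr6:121210484-121210695, plus strand: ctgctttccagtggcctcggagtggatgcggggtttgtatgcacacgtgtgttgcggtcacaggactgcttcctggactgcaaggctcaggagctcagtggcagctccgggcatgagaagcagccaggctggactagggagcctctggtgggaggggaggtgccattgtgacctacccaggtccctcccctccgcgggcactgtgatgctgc
Tubb2a, chr13:34078009-34078258, minus strand: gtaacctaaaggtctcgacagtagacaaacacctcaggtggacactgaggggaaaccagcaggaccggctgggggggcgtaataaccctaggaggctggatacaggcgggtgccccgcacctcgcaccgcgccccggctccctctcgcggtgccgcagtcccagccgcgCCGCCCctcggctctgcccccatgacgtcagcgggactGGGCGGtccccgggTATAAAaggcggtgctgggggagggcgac
Tubb4b, chr2:25224703-25224952, minus strand: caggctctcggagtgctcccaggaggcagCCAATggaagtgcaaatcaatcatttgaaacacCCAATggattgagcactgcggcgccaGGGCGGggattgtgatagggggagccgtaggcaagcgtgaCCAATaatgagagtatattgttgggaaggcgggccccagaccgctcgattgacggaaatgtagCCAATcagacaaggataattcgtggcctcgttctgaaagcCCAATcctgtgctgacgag
The stretch before Tuba8 held none of the 4 motifs, that of Tubb2a held TATAAA once and GGGCGG at 2 places, and that of Tubb4b held CCAAT at 5 places and GGGCGG at 1. Over 32851 promoters of 300 bases, 37.4% held CCAAT, 13.6% TATAAA, 35.7% GGGCGG and 12.4% TGACNNNGC. The printed stretches are shorter, at 212 bases for Tuba8 and 250 for Tubb2a and Tubb4b. Over its whole promoter Tubb4b held TATAAA at 1 place and GGGCGG at 2, and the other counts were unchanged.

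In whole liver, fewer cells of a type and less RNA per cell cannot be told apart. The 7 hepatocyte markers were abundant in all mice, with sums of 1063558 to 1725485 rescaled counts in Pair control, 1560971 to 1680476 in Pair IMC, 985779 to 1124004 in EtOH control and 916461 to 1220245 in EtOH IMC livers. With IMC averaged over diets 1 of the 7 was called, where 14.1% of all genes were higher, and 4 of the 7 stood above 0. The 1 called was the hepatocyte transcription factor gene Hnf4a, which rose by 0.67 (adjusted p = 7.22e-05 by limma). With ethanol averaged over treatments Tat rose by 0.60 and Apoa1 fell by 0.41, where 12.9% of all genes were higher and 13.1% lower. The part of hepatocyte content in the tubulin differences was not tested. The neutrophil markers Ly6g and Mpo had at most 3 reads in any library. Since Tuba8 is known from muscle, its values were set beside 6 muscle markers. Their sum was 126 to 305 in Pair control, 74.3 to 223 in Pair IMC, 105 to 224 in EtOH control and 75.7 to 1097 in EtOH IMC livers. The value of 1097 was library 11, with 803 reads of the skeletal actin gene Acta1 and 106 of the creatine kinase gene Ckm, against at most 2 reads of Acta1 in the other groups. That library had the lowest Tuba8 of its group, 89, and was the lowest of its group for 7 of 9 measurable members. The part of muscle in the Tuba8 values was not tested. Without library 11 the count of members called with IMC in ethanol-fed mice was 4, as with it.

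Markers of dividing cells, which need tubulin for the spindle, had sums of 81 to 239 in Pair control, 26.1 to 210 in Pair IMC, 108 to 367 in EtOH control and 50 to 66.7 in EtOH IMC livers. Of 4 tested, 3 fell with IMC averaged over diets (Top2a and Birc5 by 1.49 and Mki67 by 1.46), beside 14% of all genes lower. Within each diet limma called 0 of the 4, with 2 at an unadjusted p under 0.05. Of all 12537 genes, 3223 were under it in pair-fed and 4369 in ethanol-fed mice. Whether dividing cells bear on the tubulin differences was not tested. Of 6 stellate cell markers 3 also fell with IMC averaged over diets, where 14% of all genes were lower. Within the diets, 0 of the 6 were called in pair-fed and 3 fell in ethanol-fed mice, where 5.17% and 11.1% of all genes were lower. The difference between the diets in the IMC effect passed for 2 of the 6 (Reln and Pdgfrb), beside 1.11% of all genes. With ethanol averaged over treatments 4 of 6 sinusoidal endothelial markers rose and all 3 erythroid genes fell, where 12.9% of all genes were higher and 13.1% lower. Within treatments, 0 erythroid genes were called in control mice and all 3 fell in IMC mice, where 5.54% and 8.57% of all genes were lower. Of the endothelial markers 1 rose in each treatment, where 6.33% of all genes were higher in control and 7.86% in IMC mice. The endothelial sum was 2484 to 3212 in Pair control, 2591 to 3199 in Pair IMC, 3066 to 3544 in EtOH control and 2692 to 3548 in EtOH IMC livers. The stellate sum was highest in EtOH control livers, at 4431 to 5184, against 2831 to 4232 over the other groups, and the erythroid sum was lowest in EtOH IMC livers, at 48.2 to 124, against 120 to 354 over the others. The part of these cell types in the ethanol rises of the tubulin genes was not tested.

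**Figure D5:**
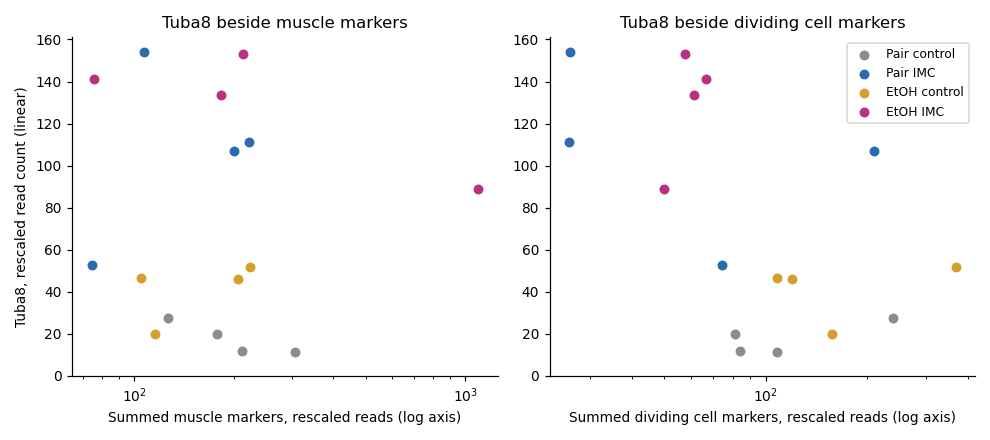
Tuba8 rescaled count (linear axis) of each of 16 mice against the summed rescaled count of muscle markers on the left and dividing cell markers on the right (log axes), coloured by group. The mouse with a muscle sum of 1097 is EtOH IMC mouse 11, with Tuba8 at 89. The part of muscle or dividing cells in the Tuba8 values was not tested.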

How the data were processed

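The authors deposited, per the labels and the study's methods, a table of normalised read counts (signal values: reads per gene divided by a size factor) made from directional TruSeq libraries with Trim Galore, FastQC, STAR on mm10 and edgeR. The counting tool is not given in the sources used here. Labels state paired-end reads and the methods single-end. Low values in each library were whole multiples of the worth of 1 read (100% within 0.01), which gave 9632659 to 12601199 reads per library. Diets had been scaled apart by 0.19 (log2), so all 16 columns were rescaled by a median ratio. Replicate pairs differed beyond sampling noise (chi-square per degree of freedom at least 5.86). limma 3.58.1 was fitted to log2(rescaled count + 1) over 12537 genes with at least 10 in at least 4 libraries, with Benjamini-Hochberg adjustment at 0.05, and was tested on simulated data. Alternatives were tests of the whole reads (edgeR 4.0.16, DESeq2 1.42.0), other scalings, pseudocounts and filters and each library left out. edgeR called 3563 genes for the averaged IMC effect, and limma 3528. The members and lists were chosen with earlier results of these data known. Named genes were the members, up to 3 called genes of largest difference per list, the 5 genes closest to Tuba8 and its neighbours within 200 kb. Stk16, Cnot11 and the marker genes named were chosen after their values were seen.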

Additional observations from a re-analysis of the deposited data

Results flagged for a closer look

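In 2 of 40 combinations of tubulin gene and group, 1 mouse stood apart from the other 3 by Dixon's criterion for 4 samples (the gap to the nearest mouse over the range of the group), and chance marks about 1 group in 20. Tuba1a in Pair IMC livers had a ratio of 0.93, from mouse 8 at 92 against 47.7 to 50.8 in the other mice, whereas mouse 8 was the lowest of its group for 7 of 9 measurable members, Tuba8 included. Tubb5 in Pair IMC livers had a ratio of 0.912, from mouse 2 at 998 against 668 to 697.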

How the results depend on the processing

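The IMC and ethanol differences of Tuba8 kept their sign under all alternatives, from 1.93 to 2.26 for IMC and 0.61 to 0.95 for ethanol, both averaged. With IMC in pair-fed mice, 1 tubulin gene in place of 2 was called after quantile normalization, with no filter, with no mean-variance trend, in a fit of these groups alone and by edgeR with upper-quartile scaling; without each library in turn the count was 1 to 2. For the difference between diets DESeq2 called 1 in place of 0, and leaving out libraries gave 0 to 1. For ethanol in control mice that range was 1 to 4. Averaged over diets, the IMC count of folding genes was 3 in place of 5 by edgeR with upper-quartile scaling and by edgeR without library 15 (3), and 3 to 6 without single libraries, where other tubulins gave 0 to 1, modifying enzymes 2 to 5 and microtubule-associated genes 6 to 12.

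Small differences turned sign. The diet difference of Tuba1a was 0.0119 by edgeR TMM, 0.0169 with upper quartile and -0.194 to 0.211 without single libraries; that of Tuba1c was -0.0587 by edgeR and -0.0612 by DESeq2 without library 15, and -0.149 to 0.113. In pair-fed mice, IMC differences of Tubb6 were 0.0432 (quantile), 0.0543 (edgeR TMM), 0.0278 (upper quartile), 0.0519 (DESeq2), 0.0541 and 0.0514 (edgeR and DESeq2 without library 15) and -0.13 to 0.23 without single libraries. The latter ranges were -0.178 to 0.171 for Tuba1b, -0.238 to 0.0171 for Tuba1c and -0.0278 to 0.166 for Tubb5. On the deposited scale the ethanol difference of Tubb5 in control mice was 0.135, and ethanol calls over all genes were higher in 2801 of 3000 in control mice (794 of 1488 rescaled), 3183 of 3624 in IMC mice (985 of 2060) and 4730 of 5222 averaged (1619 of 3266); that scale holds the shift between diets removed here. The diet difference was called for 139 genes by limma, 340 by DESeq2 and 54 to 164 without single libraries, and IMC calls in pair-fed mice were higher in 427 of 1204 by edgeR with upper quartile against 541 of 1189. The tests of whole reads without library 15 were added after the data were seen. No paired analysis was possible because the labels give each library its own number. Low reads limit Tuba8 and Tubb2b, and the causes of these changes were not tested otherwise.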
